A study of Homo sapiens with 18 samples.

Results

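The clustered replication-dependent histone genes are the genes that make the bulk of the nucleosome: the linker histone H1 and the core histones H2A, H2B, H3 and H4. They were taken from the count table by name, as protein-coding genes with a current symbol that begins with H2AC, H2BC, H3C or H4C, or that is one of H1-1 to H1-5. Of the 69 rows that matched by symbol, 8 were left out because they are not protein-coding, so 61 of 35044 genes remained: 5 for H1, 13 for H2A, 18 for H2B, 12 for H3 and 13 for H4. Most of them, 46, lie on chromosome 6 and 11 lie on chromosome 1. A further 8 genes that bear such symbols are not analysed here.

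RNA-seq counts were given for 18 libraries, 3 for each of 6 conditions. HCC1937 is a breast cancer line with mutated BRCA1. HCC1937-EV (EV) carries an empty vector, and in HCC1937-OE-BRCA1 (OE) wild-type BRCA1 is overexpressed on top of the mutated gene. Libraries of both lines were made from untreated cells and from cells given olaparib for 12 h or 24 h. Olaparib is a PARP inhibitor (PARPi), which traps PARP on DNA and disturbs replication. The genotype field of the labels reads WT for EV and BRCA1 overexpression for OE, and the treatment field names olaparib also for the untreated libraries, so line and time were read from the titles. Nothing in the labels says that the 3 libraries of a condition came from separate cultures, so p-values measure the spread between these libraries, which may be technical.

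Replication-dependent histone genes are transcribed when DNA is copied, so that new histones are at hand to package it, and their mRNAs are destroyed when replication stops or ends. Their mRNAs usually carry no poly(A) tail. They end instead just after a short stem-loop, which is bound by SLBP and cut by a machinery that holds the U7 snRNP with LSM10 and LSM11. NPAT, a target of cyclin E with CDK2, drives their transcription from nuclear bodies at the gene clusters. Some of the genes also make longer, polyadenylated transcripts, and which of both forms a library captures depends on how RNA was selected, which is not given in the sources used here.

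The stem-loop was looked for in the annotated transcripts (GENCODE 29) as the 16 letters GGCNCTTNTNAGNGCC, on the transcript's own strand. It was present in 29 of the 59 members with an annotated transcript (49.15%) and in 48 of 58676 genes in all (0.0818%). Many of the other member transcripts are annotated as coding sequence alone and end before the place of a stem-loop. The versions found are given 5′ to 3′, with the 6 bases of each arm of the stem in capitals and the loop in lower case. They are shown because the first arm of the H4 genes differs from that of the other families, while most H2A, H2B and H3 genes share the same version. The second arm of H2AC11 is that of the H4 genes.

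H2AC6, H2AC8, H2AC13, H2AC25, H2BC6, H2BC8, H2BC9, H2BC13, H2BC15, H2BC18, H2BC21, H2BC26, H3C10, H3C14 and H3C15: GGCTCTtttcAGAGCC
H2BC4, H2BC5, H2BC7 and H3C8: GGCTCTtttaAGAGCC
H3C6: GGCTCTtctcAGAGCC
H2AC11: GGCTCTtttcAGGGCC
H4C2, H4C5, H4C8, H4C11 and H4C16: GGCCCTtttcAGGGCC
H4C9, H4C14 and H4C15: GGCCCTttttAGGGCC

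All 8 H4 members with a stem-loop carried the arm GGCCCT, and no member of H2A, H2B or H3 did. Past the stem-loop, the annotated transcript that ran furthest went on for 1128 bases in H2AC6, 1729 bases in H2BC21 and 1655 bases in H4C8. Members were therefore divided by how the annotation ends them, a division made after values had been seen. A member was called long if a transcript ran at least 100 bases past the stem-loop, or held a poly(A) signal in its last 40 bases with no stem-loop near, and short otherwise. By this rule 25 members were long and 34 were short, while H3C2 and H3C3 are not in GENCODE 29.

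Promoters were read from RefSeq (GRCh38.p14), as 250 bases before and 50 bases after each gene's start, for the 55 members found there. The TATA box, searched as TATAAA on both strands, was in 37 of them (67.3%) and in 11.5% of all 35116 promoters. CCAAT was in 46 (83.6%), against 34.6% of all promoters: every H1, H2A, H2B and H3 promoter held it, and 2 of the 11 H4 promoters did. The octamer ATTTGCAT, a site for the factor OCT1, was in 10 of the 12 H2A promoters and 13 of the 17 H2B promoters, in none of the promoters of H1, H3 and H4, and in 1.77% of all promoters. A hit could lie anywhere in the window. Windows of H2A and H2B genes that lie head to head overlap, so the same site can be counted for both. The 250 bases before the start of 3 members that changed with olaparib are given below in the sense of the gene, with these 3 motifs in capitals on either strand.

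H2AC6 (chr6:26123922-26124171, plus strand): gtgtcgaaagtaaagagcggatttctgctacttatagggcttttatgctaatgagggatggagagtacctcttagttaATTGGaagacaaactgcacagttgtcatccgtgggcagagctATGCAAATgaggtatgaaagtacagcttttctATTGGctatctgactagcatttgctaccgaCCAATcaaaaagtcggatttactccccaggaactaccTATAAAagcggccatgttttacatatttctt
H2BC21 (chr1:149886683-149886932, minus strand): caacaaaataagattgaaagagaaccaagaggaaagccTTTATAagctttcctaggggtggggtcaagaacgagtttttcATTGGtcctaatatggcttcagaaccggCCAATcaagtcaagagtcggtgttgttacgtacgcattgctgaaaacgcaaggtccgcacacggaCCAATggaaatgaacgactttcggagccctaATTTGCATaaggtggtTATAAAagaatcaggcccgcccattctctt
H4C8 (chr6:26285535-26285784, minus strand): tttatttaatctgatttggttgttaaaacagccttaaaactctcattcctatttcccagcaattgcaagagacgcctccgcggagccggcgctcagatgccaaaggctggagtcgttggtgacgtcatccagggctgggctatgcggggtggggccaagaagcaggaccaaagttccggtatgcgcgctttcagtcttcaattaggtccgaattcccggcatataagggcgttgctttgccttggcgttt

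The H2AC6 window held 1 TATAAA, 3 CCAAT and 1 octamer, the H2BC21 window held 2, 3 and 1, and none of these letters were in the H4C8 window. H2AC6 shares its promoter with H2BC4, which is read in the opposite direction from a start 246 bases away.

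The depth of the libraries lay between 15081973 and 17571922 counts, with a median of 16077300. All 61 members together took 73530 counts over the 18 libraries, or 0.0253% of all counts, so single members rest on few reads. After removal of genes with low counts, 18335 genes were tested, with 35 of the members among them. The 26 members below this filter had between 2 and 92 counts each over all 18 libraries and 15 counts at most in a library. A count of 0 in a library allowed a level of up to 0.177 to 0.204 CPM (counts divided by the TMM-normalised size of the library and brought to the same total), and this limit covers counting error alone.

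The labelled lines were first checked against BRCA1 and against markers of epithelial cells. BRCA1 stood at 126, 111 and 117 CPM in the untreated EV libraries and at 166, 122 and 127 CPM in the untreated OE libraries. The difference was 0.24 on the log2 scale and was not called (edgeR adjusted p = 0.0654), and a count per gene does not tell the mutated from the wild-type copy. All 10 epithelial markers were called higher in OE, with a median log2 difference of 7.14, and their summed level was 3354 to 3496 CPM in untreated EV and 9896 to 12700 CPM in untreated OE. EPCAM, an adhesion protein of epithelia, averaged 0.0206 CPM in untreated EV and 310.1 CPM in untreated OE, and KRT5, KRT14 and KRT19 were likewise below 1 CPM in EV, while KRT8 and KRT18 were present in both. The 9 markers of other cell types in the table summed to 99.9 to 120 CPM in untreated EV, most of it COL1A1, and to 19.5 to 20.3 CPM in untreated OE. PTPRC was at 0 in EV, and COL1A2, DCN and CD68 were near 0 in both. Whether both sets of libraries are of the same parental line was not tested, and EV and OE are named here as labelled. A difference between EV and OE therefore cannot be told apart from this wider difference between the libraries.

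In untreated EV libraries, reads of the members came from few genes. H2BC12 gave 24.3% of them, H2AC6 16.5%, H1-2 11.5%, H4C9 6.04%, H2BC21 5.97% and H2BC5 5.73%, or 70.0% together. Per kilobase of annotated exon, H2BC12, an H2B gene annotated as coding sequence alone, was the highest at 70.6 ± 5.7 CPM per kb (SD, n = 3). H1-2, a linker histone gene, followed at 19.9 ± 3.12 CPM per kb, H2AC6 at 10.96 ± 0.966, H2BC5 at 7.29 ± 0.855 and H4C9 at 5.18 ± 0.5997, and the ranges set by these SDs do not meet. Next came H2BC11 at 3.39 ± 0.468, H2BC21 at 3.02 ± 0.50 and H4C12 at 2.65 ± 0.614 CPM per kb, which did not differ beyond their spread. In untreated OE the highest were H2BC12 at 279.9 ± 55.2, H2AC6 at 55.75 ± 1.53, H1-2 at 43.7 ± 8.03, H2BC5 at 38.8 ± 5.08 and H4C9 at 25.5 ± 5.32 CPM per kb. H1-2 and H2BC5 overlapped there within their spread. These levels depend on the annotated length, which may not be that of the transcripts sequenced, and near-identical members can share reads, so the split between members of a family is uncertain.

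Most members with a measurable level were those annotated long. In untreated EV, 15 of the 25 long members reached 1 CPM, against 2 of the 34 short members, which were H2BC12 and H1-2. In untreated OE, these were 20 and 6. CPM is not corrected for length, and the median annotated exon length was 1876 bases for long and 393 bases for short members. In untreated EV, the medians were 1.40 and 0.124 CPM, and 0.552 and 0.301 CPM per kb. In untreated OE, they were 4.37 and 0.249 CPM, and 2.86 and 0.640 CPM per kb. The GC content of the long members, with a median of 47.3%, was near that of all genes tested, 48.7%, and that of the short members was 60.2%. How far length, annotation, RNA selection or the cells set this pattern was not tested.

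The summed level of all 61 members was lower with olaparib in both lines. It was 112, 106 and 114 CPM in the untreated EV libraries, 82.0, 73.0 and 81.1 CPM at 12 h and 79.0, 78.1 and 72.9 CPM at 24 h. The libraries at both times lay below all untreated ones, and those at 12 h and 24 h overlapped. In OE, the sum was 414, 487 and 461 CPM untreated, 404, 398 and 409 CPM at 12 h and 399.9, 390.4 and 391 CPM at 24 h. Here, too, treated libraries lay below untreated ones, although the lowest untreated library was near them. The ratio of 24 h to untreated was 0.691 in EV and 0.868 in OE. In bulk RNA, fewer cells in replication and less histone mRNA per cell cannot be told apart.

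**Figure D1:**
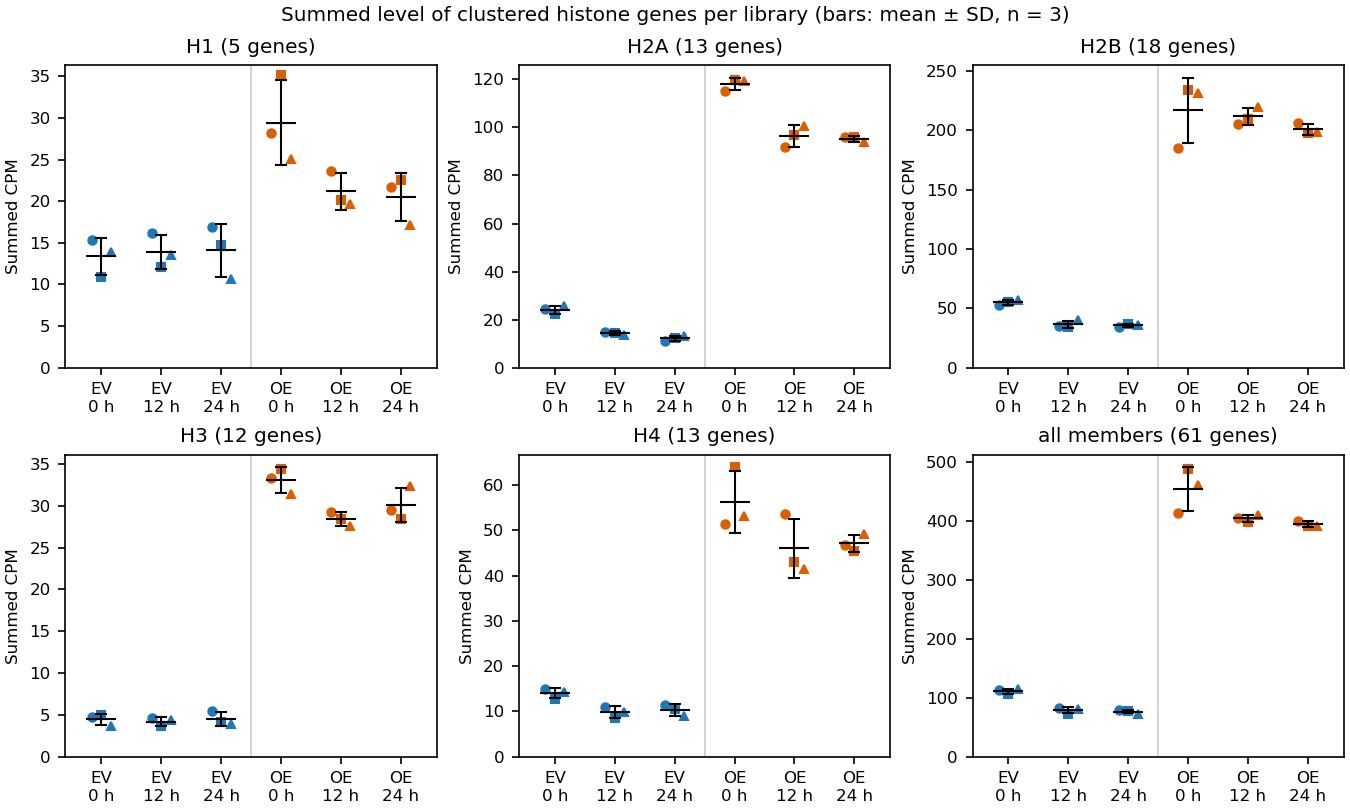
Summed CPM of the members of each histone family and of all 61 members, for each library (points) by line and hours of olaparib, with mean ± SD of 3 libraries. The H2A and H2B means in EV were 24.0 and 55.0 CPM untreated and 12.2 and 35.6 CPM at 24 h, the H1 and H3 libraries overlapped there, and all families stood higher in OE.

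By family, the H2A sum was lowest after treatment relative to untreated EV, at 24.0 ± 1.75 CPM untreated, 14.4 ± 0.677 at 12 h and 12.2 ± 0.984 at 24 h (SD, n = 3). The H2B sum was 55.0 ± 1.85, 36.4 ± 2.94 and 35.6 ± 1.41 CPM, and the H4 sum was 14.1 ± 1.09, 9.85 ± 1.26 and 10.3 ± 1.24 CPM. In contrast, the H1 sum was 13.4 ± 2.26, 13.9 ± 2.07 and 14.1 ± 3.21 CPM and the H3 sum 4.46 ± 0.712, 4.19 ± 0.510 and 4.504 ± 0.808 CPM, with overlapping libraries. In OE, the H1 sum went from 29.5 ± 5.14 to 21.2 ± 2.19 and 20.5 ± 2.90 CPM and the H2A sum from 118 ± 2.43 to 96.4 ± 4.43 and 95.3 ± 1.22 CPM. The H2B sum in OE was 217 ± 27.4 CPM untreated and 201 ± 4.48 CPM at 24 h, a difference within the spread of the untreated libraries. No test was made on these sums. Much of the H2A sum is H2AC6, and without it the log2 change in EV was -0.17 at 12 h and -0.45 at 24 h, in place of -0.74 and -0.98.

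At 12 h in EV, 1 of 35 members was called lower and none higher (adjusted p under 0.05 in the quasi-likelihood test of edgeR, adjusted by Benjamini-Hochberg over all genes tested), where 0.0164% of all genes were called lower. It was H2AC6 (chr6:26124145-26139116, plus strand, GENCODE 29 on GRCh38), a gene for canonical H2A. Its level was 20.0, 16.8 and 18.01 CPM untreated and 8.84, 9.75 and 9.17 CPM at 12 h, with every treated library below the untreated ones. It fell by 0.98 on the log2 scale (SE 0.115, edgeR adjusted p = 0.000653), and with the compared libraries fitted alone its adjusted p was 0.164. Across the 35 members the median log2 change was -0.43, with 26 below 0, against a median of 0.00 for all genes. For 9 members, all 3 treated libraries lay below all untreated ones (background 9.65% of genes). Besides H2AC6 these were H2BC7, H2BC8, H2BC11, H2BC12, H2BC21, H3C10, H4C8 and H4C9, none of which was called.

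The members nearest to a call at 12 h in EV had libraries at 12 h that overlapped with those at 24 h. H4C8 was at 1.35, 1.25 and 1.02 CPM at 12 h, a log2 change of -1.06 (SE 0.209, edgeR adjusted p = 0.0831). H2BC21 was at 4.10, 4.0 and 4.62 CPM (log2 change -0.64, edgeR adjusted p = 0.151) and H2BC12 at 17.0, 16.5 and 21.6 CPM (log2 change -0.55, edgeR adjusted p = 0.147). All 13 H2B members had values below 0, with a median of -0.76, while H2A members other than H2AC6 had values from -2.04 to 0.22. At an unadjusted p under 0.05 there were 10 members, and DESeq2's Wald test called 5 lower. The count of calls was 4 without 12 h EV library 1. Over all genes, 3 were called lower in the main fit, 52 with DESeq2 and 79 without that library.

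By 24 h, 8 of 35 members were called lower in EV (22.9%, where 5.12% of all genes were called lower) and none higher (background 8.62%). They were H2AC6, 6 H2B genes and H4C8. The median log2 change was -0.57, with 27 of 35 below 0 and all 13 tested H2B members among them, and for 11 members all 24 h libraries lay below all untreated ones (background 19.0%). Members of H1 and H3 were not called. Of the members tested, 7 of the 20 long and 1 of the 13 short ones were called, the latter being H2BC12, and this difference was not tested. Among the 8, H2BC6 and H2BC7 passed the filter only through OE, where they are higher. With the untreated and 24 h EV libraries fitted alone, 22 members were tested and 7 were called lower, against 2396 of 14825 genes.

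H2AC6 reached 7.56, 6.96 and 9.29 CPM at 24 h in EV and fell by 1.20 on the log2 scale (SE 0.116, edgeR adjusted p = 7.93e-06). H2BC21 (chr1:149884459-149886652, minus strand), an H2B gene of the chromosome 1 cluster, was at 7.45, 5.38 and 7.03 CPM untreated and at 2.36, 4.25 and 3.12 CPM at 24 h. All treated libraries were below the untreated ones, and the gene fell by 1.03 (SE 0.174, edgeR adjusted p = 0.00217). H4C8 (chr6:26277609-26285638, minus strand), an H4 gene, went from 3.11, 2.41 and 2.04 CPM to 1.24, 1.12 and 1.44 CPM, again with no overlap, and fell by 0.99 (SE 0.205, edgeR adjusted p = 0.00625). H2BC12 (chr6:27146418-27146798, minus strand), the H2B gene with the most reads, was at 24.4, 28.4 and 27.9 CPM untreated and at 18.9, 19.1 and 19.6 CPM at 24 h. Its fall was the smallest of the 8, at 0.49 (SE 0.134, edgeR adjusted p = 0.0222).

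H2BC5 was at 5.72, 7.17 and 6.17 CPM in untreated EV and at 4.60, 3.24 and 4.07 CPM at 24 h, and fell by 0.68 (SE 0.189, edgeR adjusted p = 0.0241). H2BC9 fell by 0.74 (SE 0.232, edgeR adjusted p = 0.0396), from 3.04, 3.28 and 3.21 CPM to 1.83, 2.42 and 1.44 CPM. The largest fitted falls among these 8 belonged to a pair of H2B genes with few reads. Both passed the filter only through OE, where they are higher, so their falls are given as a description. H2BC6 had 19, 9 and 14 counts in the untreated and 2, 3 and 1 counts in the 24 h libraries, a fall of 2.79 (SE 0.652, edgeR adjusted p = 0.011). H2BC7 had 7, 9 and 10 counts and then 2, 4 and 2 counts, a fall of 1.71 (SE 0.565, edgeR adjusted p = 0.0483).

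**Figure D2:**
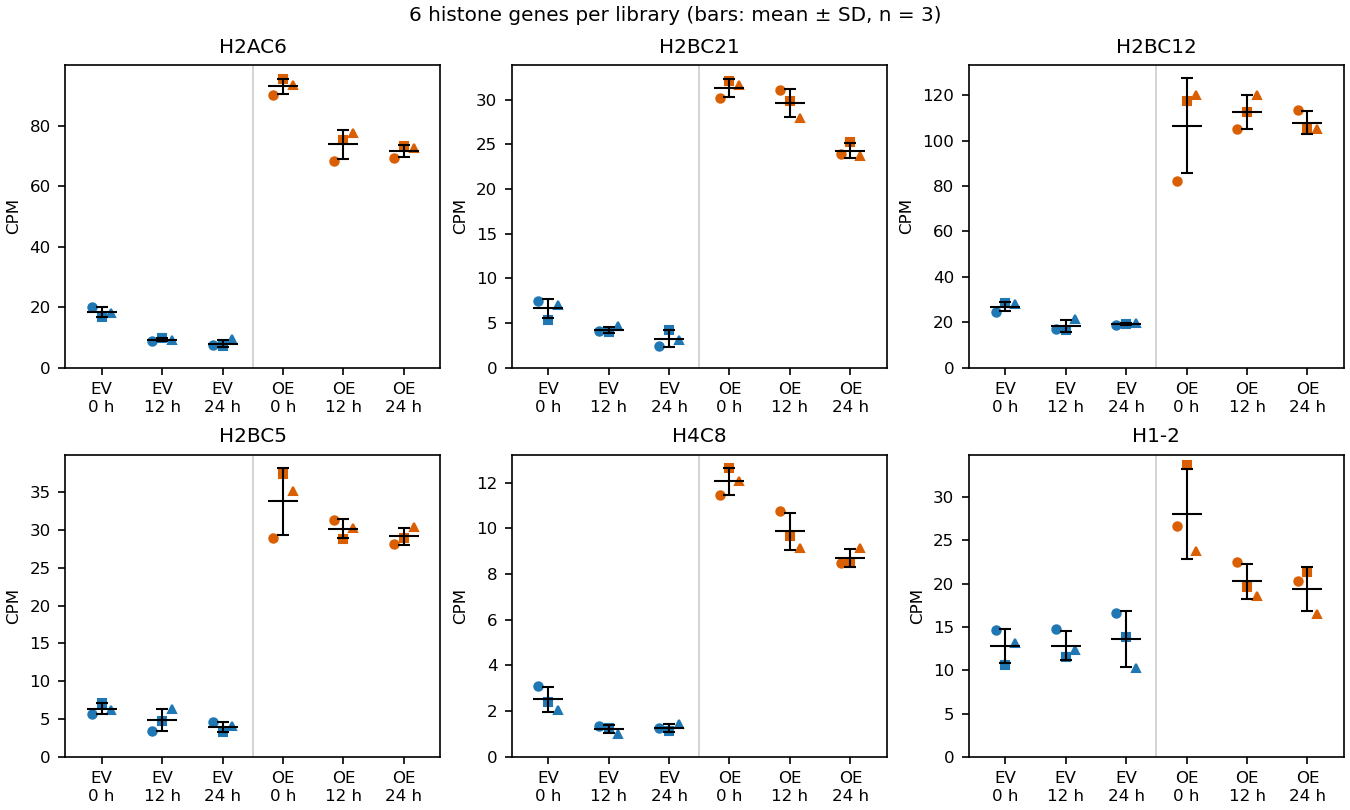
CPM of 6 histone genes in each library (points) by line and hours of olaparib, with mean ± SD of 3 libraries. H2AC6, H2BC21, H2BC12, H2BC5 and H4C8 lay lower at 24 h than untreated in every EV library, while H1-2 overlapped; in OE the libraries of H2AC6, H2BC21, H4C8 and H1-2 did not overlap at 24 h.

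Calls in EV at 24 h were also made with each library left out in turn. H2AC6 and H2BC21 were called in each of the 6 fits that left out 1 library. H4C8 and H2BC6 lost the call only without untreated EV library 1, with edgeR adjusted p = 0.0502 and 0.0611, while H2BC5 lost it in 4, H2BC9 and H2BC12 in 5 and H2BC7 in all 6 of these fits. The number of members called was 2 without untreated library 1, 4 without library 2 or 3, and 5 without 24 h library 1 or 2. Calls over all genes fell in these fits as well. With every library 939 genes were called lower, and 128, 529 and 353 without untreated library 1, 2 and 3. Without 24 h library 1 or 2 these were 196 and 167. The trend of a library's values on the GC content of genes also moved with this comparison, from a Spearman correlation of -0.598 to -0.233 in untreated EV to 0.283 to 0.625 at 24 h. With an offset for GC content and length, the fall of H2BC12 was 0.81 in place of 0.49, all 8 calls remained and H3C10 was called lower and H3C8 higher (log2 change 0.82, edgeR adjusted p = 0.0469).

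Members that were not called in EV at 24 h had values on both sides of 0. H1-2 was at 14.6, 10.6 and 13.1 CPM untreated and at 16.7, 13.9 and 10.2 CPM at 24 h, with overlap and a log2 change of 0.09 (SE 0.180). H1-4, with 26 counts over the 3 untreated EV libraries, is too low to compare, at a log2 change of -0.51 (SE 0.732). Of the H3 genes, H3C10 had a log2 change of -0.63 (edgeR adjusted p = 0.0636) and H3C8 of 0.79 (edgeR adjusted p = 0.0765), both with no overlap between libraries and neither called. H3C6, with 16 counts over the 3 untreated EV libraries, passed the filter only through OE and is too low to compare in EV, at a log2 change of 0.68 (SE 0.415). H4C9, the H4 gene with the most reads, was at 7.08, 5.81 and 7.22 CPM untreated and at 6.14, 5.07 and 4.61 CPM at 24 h, a log2 change of -0.34 (SE 0.195), and H2AC11 had a log2 change of -0.48 (SE 0.221).

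**Figure D3:**
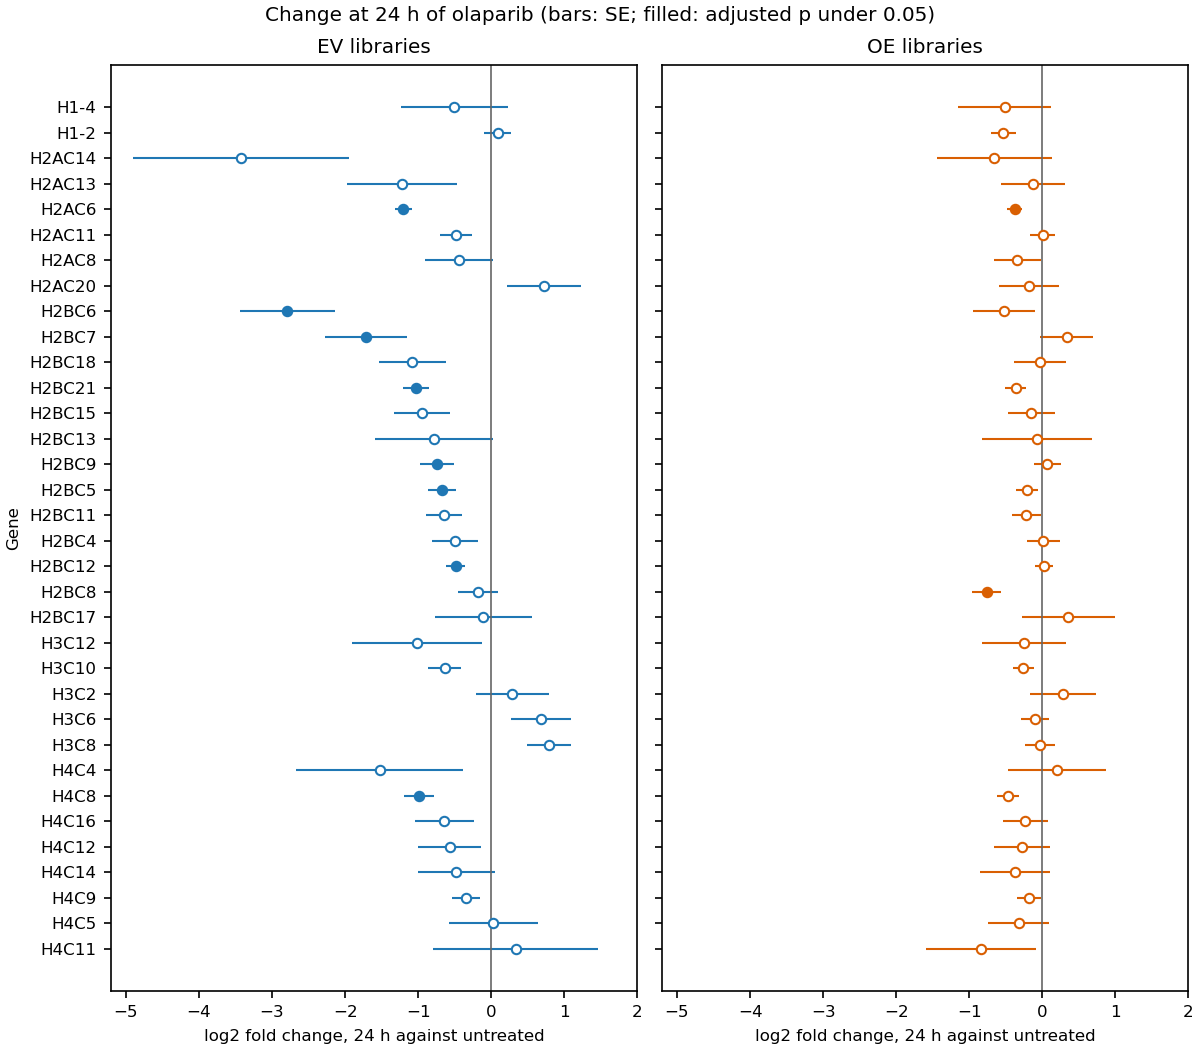
log2 fold change at 24 h of olaparib against untreated, with SE, for 34 tested members ordered by family, in EV (left) and OE (right); filled points had an adjusted p under 0.05. H3C3, with no count in these EV libraries, is not drawn. In EV 8 points are filled, all below 0, and in OE 2 are, H2AC6 and H2BC8.

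In OE, no member was called at 12 h (background 2.31% in either direction and 0.605% lower). Of the 35, 4 members had an unadjusted p under 0.05, and DESeq2's Wald test called 1, H2AC6, where it called 213 of 18335 genes lower. The median log2 change was -0.20, with 27 of 35 below 0, and 7 members had all treated libraries below the untreated ones (background 5.87%). H2AC6 was at 90.3, 95.3 and 93.4 CPM untreated and at 68.4, 75.4 and 77.7 CPM at 12 h, with no overlap and a log2 change of -0.33 (SE 0.101, edgeR adjusted p = 0.105). H1-2 went from 26.7, 33.8 and 23.7 CPM to 22.6, 19.6 and 18.6 CPM, a log2 change of -0.47 (SE 0.172, edgeR adjusted p = 0.221).

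At 24 h in OE, 2 of 35 members were called lower (5.71%, where 3.55% of all genes were called lower) and none higher (background 4.71%). H2AC6 was at 69.3, 73.2 and 72.5 CPM, below every untreated library, and fell by 0.38 on the log2 scale (SE 0.101, edgeR adjusted p = 0.0251). H2BC8 (chr6:26215159-26216692, minus strand), an H2B gene, went from 8.81, 10.7 and 10.8 CPM to 6.51, 6.14 and 5.15 CPM, with no overlap, and fell by 0.76 (SE 0.195, edgeR adjusted p = 0.0188). Both calls depended on the libraries used. The call was lost for H2AC6 in 5 and for H2BC8 in 4 of the 6 fits without 1 library, and no member was called without untreated OE library 2 or 3 or without 24 h OE library 2 or 3. Without untreated OE library 1, 4 were called. Over all genes, 651 were called lower with every library, and 216 to 355 in the fits with no member called. Without untreated OE library 1, it was 1757 genes. When the compared libraries were fitted alone, H2AC6 had an adjusted p of 0.0619.

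H4C8 and H1-2 came close in OE at 24 h. H4C8 went from 11.5, 12.6 and 12.1 CPM to 8.48, 8.47 and 9.14 CPM, a log2 change of -0.47 (SE 0.148, edgeR adjusted p = 0.053), and H1-2 reached 20.3, 21.3 and 16.6 CPM, a log2 change of -0.53 (SE 0.172, edgeR adjusted p = 0.0606). H2BC21 went from 30.2, 32.2 and 31.7 CPM to 24.0, 25.3 and 23.7 CPM (log2 change -0.37, SE 0.140, edgeR adjusted p = 0.110). None of these overlapped with the untreated libraries, and for 6 members in all the 24 h libraries lay below the untreated ones (background 9.87%). H2BC12, in contrast, was at 82.4, 118 and 120.0 CPM untreated and at 114, 105 and 105 CPM at 24 h, with overlap and a log2 change of 0.02 (SE 0.124). The median over the 35 members was -0.21, with 27 below 0, against a median of 0.02 for all genes.

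No member was called between 12 h and 24 h in either line (background 0.18% in EV and 1.65% in OE, in either direction). At an unadjusted p under 0.05 there were 3 members in EV and 1 in OE, and DESeq2's Wald test called 0 in both. With the libraries compared fitted alone, 2 members were called in OE, both lower, as were 1774 of 16332 genes.

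The change at 24 h differed between the lines for 3 of 35 members, each with a lower log2 change in EV than in OE (edgeR test of the interaction). This share is near that of all genes, of which 8.16% were called in this direction and 11.2% in the other. H2AC6 differed by 0.83 on the log2 scale (SE 0.154, edgeR adjusted p = 0.00183) and was called in all 12 fits without 1 library. H2BC21 differed by 0.66 (SE 0.223, edgeR adjusted p = 0.0421) and H2BC7 by 2.05 (SE 0.673, edgeR adjusted p = 0.0378), and each kept the call in 3 of the 12 fits. H2BC7 passed the filter only through OE, where it is higher. The number called was 1 without untreated EV library 1 or 3, without 24 h EV library 1, or without 24 h OE library 2 or 3. Without untreated OE library 1, 4 were called in this direction and 1 in the other. Without 24 h EV library 3, these were 1 and 2. Over all genes, 1496 were called in this direction in the main fit and 801 to 1204 in the fits with 1 member. Without untreated OE library 1, 2630 genes were called in this direction and 2872 in the other, and without 24 h EV library 3, 1480 and 1989. H2BC12 came near, with a difference of 0.51 (SE 0.183, edgeR adjusted p = 0.056), which with the offset for GC content and length was 1.01 and was called. H1-2 pointed the other way, at -0.62 (SE 0.249, edgeR adjusted p = 0.0845). Without the filter on low counts H1-2 was called, at -0.68 (edgeR adjusted p = 0.0323), as were 2404 of 35044 genes in that direction. With a replicate block and the offset, H3C8 was called at -0.90 (edgeR adjusted p = 0.0434), as were 1991 of 18335 genes in that direction. For the change at 12 h, no member differed between the lines (background 0.518% in either direction). At an unadjusted p under 0.05 there were 8, with H2AC6 at 0.65 (edgeR adjusted p = 0.0599), and DESeq2's Wald test called 1. Without untreated OE library 1 there were 2 calls. All these calls were in the same direction, in which 69 genes were called in the main fit, 177 with DESeq2 and 286 without that library.

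Untreated OE libraries held 4.09 times the summed histone CPM of untreated EV libraries. Of the 35 members, 26 were called higher in OE and none lower, where 39.4% of all genes were called higher and 33.3% lower, so most genes differed between these libraries. Since 13 of the 35 passed the filter only with the help of OE, where they are high, the count is better read on the 22 that pass on the untreated and 24 h EV libraries alone. Of these, 17 were called higher, and their log2 differences ran from 0.05 to 3.03 with a median of 1.94. Over all genes the median was 0.11.

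By family, the sum in untreated OE was 2.20 times that in EV for H1, 4.91 times for H2A, 3.95 times for H2B, 7.41 times for H3 and 3.99 times for H4. H1-2 was at 14.6, 10.6 and 13.1 CPM in EV and at 26.7, 33.8 and 23.7 CPM in OE, a log2 difference of 1.13 (SE 0.177, edgeR adjusted p = 7.33e-06) with no overlap. H2AC6 was 2.35 higher (SE 0.109, edgeR adjusted p = 4.5e-14), H2BC5 2.41 higher (SE 0.171, edgeR adjusted p = 4.9e-11), H2BC12 1.99 higher (SE 0.132, edgeR adjusted p = 1.66e-11) and H4C9 2.30 higher (SE 0.181, edgeR adjusted p = 2.86e-10). In each of these, every OE library was above every EV library. H4C8 (2.26), H2AC11 (2.29) and H2BC8 (2.70) were similar on the log2 scale, while H2BC15 (0.67), H4C14 (0.60), H2BC17 (0.05) and H2BC13 (0.00) were not called.

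Among the 22 members that pass on EV libraries, H3C8 had the largest log2 difference, 3.03 (SE 0.259, edgeR adjusted p = 1.07e-09). H3C10 was at 1.62, 1.98 and 1.48 CPM in untreated EV and at 10.8, 15.5 and 13.4 CPM in untreated OE, 2.96 higher on the log2 scale (SE 0.177, edgeR adjusted p = 2.99e-12). H3C6, which passed the filter only through OE, where it is high, had 8, 5 and 3 counts in the EV and 123, 132 and 116 counts in the OE libraries, a fitted log2 difference of 4.51 (SE 0.292) that is given as a description. H3C3 had no count in the untreated EV libraries and 24, 19 and 16 counts in the OE ones, which makes it at least 6.57-fold higher when 3 counts are allowed in each EV library. In all, 9 members had no count in untreated EV and 2 had none in untreated OE.

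**Figure D4:**
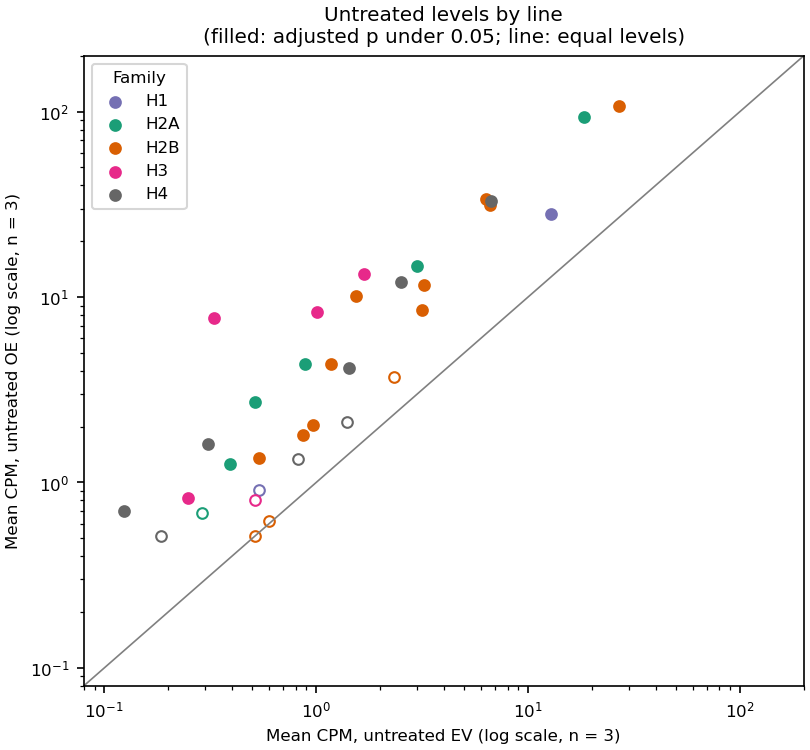
Mean CPM of 34 tested members in untreated EV (x axis) and untreated OE (y axis), both on log scales, by family; filled points had an adjusted p under 0.05 and the line marks equal levels. H3C3, at 0 in EV, is not drawn. H3C6, which passed the filter only through OE, lies furthest above the line, and H2BC13 and H2BC17 lie on it.

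Many H2A and H2B genes lie head to head on a shared promoter, with starts 234 to 331 bases apart, or 219 bases for H2AC6 and H2BC4 in GENCODE 29, for the pairs found. H2AC6 and H2BC4 share a promoter, and H2BC4 had a log2 change of -0.50 (SE 0.316, edgeR adjusted p = 0.298) in EV at 24 h, where H2AC6 fell by 1.20. H2BC21, which fell by 1.03 there, faces H2AC20, an H2A gene with a log2 change of 0.72 (SE 0.507, edgeR adjusted p = 0.355). H2AC20 had 5, 5 and 9 counts in untreated EV and 10, 15 and 8 counts at 24 h, too few to compare with H2BC21. H2BC8 fell by 0.76 in OE, and its partner H2AC8 had a log2 change of -0.34 (SE 0.321, edgeR adjusted p = 0.574). The differences within pairs were not tested.

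Genes that act on histone mRNA were followed in the same test, by lists chosen with earlier results of these data known. Of 31 tested genes for transcription and 3′ processing of histone mRNA, 4 were called lower and none higher in EV at 24 h (background 5.12% and 8.62%), and 1 lower and none higher in OE at 24 h. NPAT fell in EV from 37.1 ± 4.37 to 25.2 ± 2.09 CPM (SD, n = 3), by 0.56 on the log2 scale (SE 0.171, edgeR adjusted p = 0.0355), and went from 20.6 ± 4.37 to 29.5 ± 3.58 CPM in OE, a log2 change of 0.52 (edgeR adjusted p = 0.0669). NCBP1, of the nuclear cap-binding complex, fell in EV by 0.38 (SE 0.0938, edgeR adjusted p = 0.0141), and SNRPD3, a core protein of snRNPs, fell by 0.38 in EV (SE 0.0842, edgeR adjusted p = 0.0086) and by 0.32 in OE (SE 0.0845, edgeR adjusted p = 0.0236). SLBP, which binds the stem-loop, was not called, at 93.4 ± 3.38 CPM untreated and 78.2 ± 5.76 CPM at 24 h in EV and at 58.7 ± 6.49 and 61.2 ± 3.43 CPM in OE. CASP8AP2 (log2 change -0.64 in EV and 0.24 in OE at 24 h), LSM10 (0.34 and -0.39), LSM11 (-0.15 and 0.22), ZNF473 (-0.04 and -0.10) and HINFP (0.15 and -0.08) were not called either. Of 21 genes for decay of histone mRNA, 2 were called higher and 3 lower in EV at 24 h and 1 in each direction in OE, and of 22 genes for histone chaperones 1 and 3 in EV and 2 and 2 in OE. The background was 8.62% higher and 5.12% lower in EV and 4.71% and 3.55% in OE, so these few calls say nothing particular to either list. The decay genes included XRN1, the main exonuclease of the cytoplasm, which rose in OE by 0.80 (SE 0.217, edgeR adjusted p = 0.0273). PABPN1, of the same list, fell there by 0.54 (SE 0.141, edgeR adjusted p = 0.022).

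Among genes of S phase, such as those for replication forks and nucleotide supply, calls were lower in EV and higher in OE. Of 43 tested, 12 were called lower and none higher in EV at 24 h (background 5.12% and 8.62%), with a median log2 change of -0.26, and 12 were called higher and none lower in OE at 24 h (background 4.71% and 3.55%), with a median of 0.24. In the test of the difference between lines, 21 were higher in OE and 1 lower (background 8.16% and 11.2%). MCM4, a subunit of the replicative helicase, fell in EV by 0.41 (SE 0.0765, edgeR adjusted p = 0.00367). RRM2, a subunit of ribonucleotide reductase, rose in OE by 0.56 (SE 0.0855, edgeR adjusted p = 0.000225). CCNE1 and CCNE2, the E cyclins, fell in EV by 0.90 (SE 0.143, edgeR adjusted p = 0.00133) and 0.76 (SE 0.166, edgeR adjusted p = 0.00801), and in OE CCNE2 rose by 0.83 (SE 0.156, edgeR adjusted p = 0.00197), with CCNE1 at 0.20 (edgeR adjusted p = 0.412). CDKN1A, the CDK inhibitor p21, rose by 1.07 in EV (SE 0.121, edgeR adjusted p = 6.29e-05) and by 0.60 in OE (SE 0.109, edgeR adjusted p = 0.0015). In the list for the switch from G1 to S, which shares CCNE2 with the S phase list, 1 of 20 genes was called higher and 5 lower in EV, and 4 higher and 1 lower in OE. What part a shift in the cell cycle has in the histone values was not tested.

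Of 54 genes of G2 and M phase, 8 were called higher and 4 lower in EV at 24 h (background 8.62% and 5.12%) and 19 lower and none higher in OE (background 3.55% and 4.71%). In OE at 12 h 11 were called lower (background 0.605%). The largest fall among those named was that of CDC20, an activator of the anaphase-promoting complex, by 1.05 in OE at 24 h (SE 0.117, edgeR adjusted p = 4.95e-06). AURKA, a mitotic kinase, fell in OE by 0.57 (SE 0.0862, edgeR adjusted p = 0.000205), while AURKB rose in EV by 0.59 (SE 0.124, edgeR adjusted p = 0.00687). MKI67 and CENPE went the other way in EV at 24 h, and fell by 0.69 (SE 0.149, edgeR adjusted p = 0.0076) and 0.93 (SE 0.209, edgeR adjusted p = 0.00897). These counts depend on the GC offset: with it, 41 of 54 were called in OE at 24 h and 39 at 12 h, with the direction not given here. Calls over all 18335 genes also rose with the offset, to 1286 higher and 1714 lower at 24 h and 548 and 559 at 12 h.

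Replication-independent histone genes, most of whose mRNAs carry a poly(A) tail, were called higher more than lower in EV. Of 11 tested, 5 were called higher and 1 lower in EV at 24 h (background 8.62% and 5.12%), and 1 lower and none higher in OE. H3-3A, which encodes the replacement histone H3.3, rose in EV from 284 to 380.2 CPM, by 0.42 (SE 0.0938, edgeR adjusted p = 0.0086), with H3-3B at 0.17 (edgeR adjusted p = 0.275). H2AZ1, for H2A.Z, rose by 0.53 (edgeR adjusted p = 0.028), H2AX, the H2A variant phosphorylated at DNA breaks, whose gene makes mRNA with and without such a tail, by 0.51 (edgeR adjusted p = 0.0277) and H2AJ by 0.95 (SE 0.223, edgeR adjusted p = 0.0113). In OE at 24 h, H2AX had a log2 change of -0.44 (edgeR adjusted p = 0.0683), H2AZ1 of -0.48 (edgeR adjusted p = 0.0569) and H3-3A of -0.08 (edgeR adjusted p = 0.667). CENPA, the H3 variant of centromeres, fell there by 0.71 (SE 0.128, edgeR adjusted p = 0.00133). All 11 had values below 0 in OE at 24 h, against 27 of 35 clustered members.

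**Figure D5:**
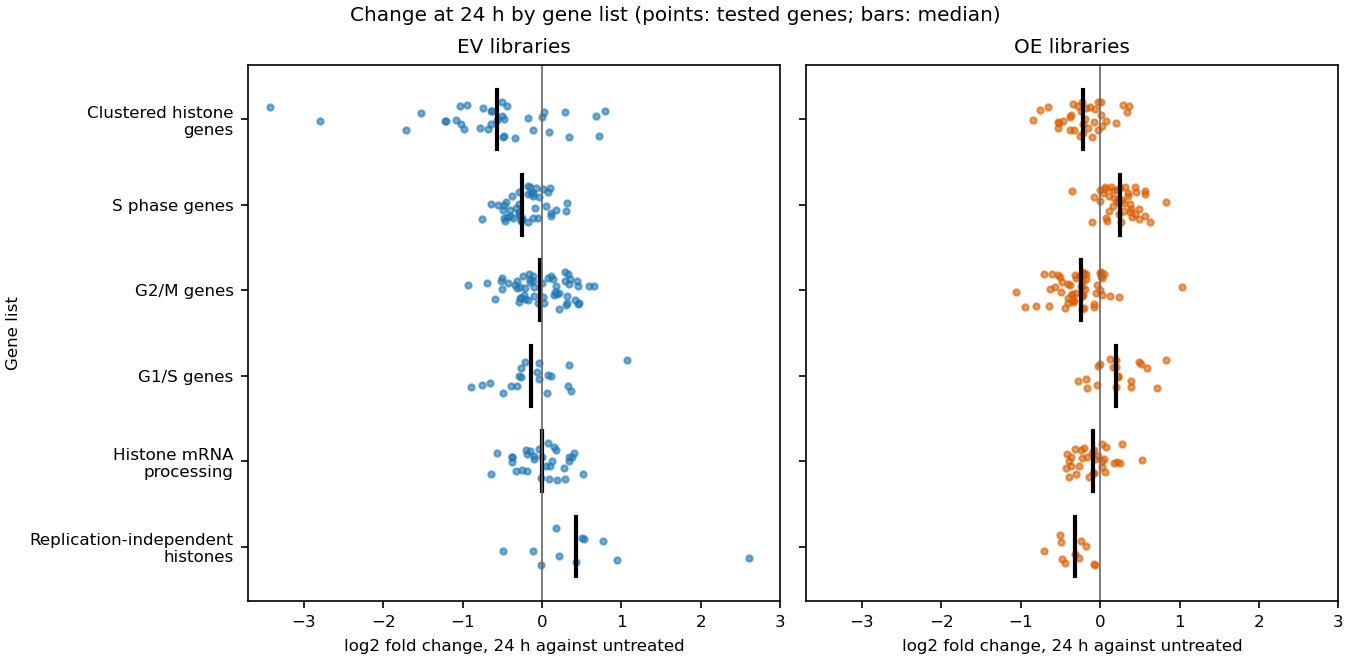
log2 fold change at 24 h of olaparib against untreated for the tested genes of 6 lists (points), with the median of each list (bar), in EV (left) and OE (right). Medians were -0.57 and -0.21 for the clustered histone genes, -0.26 and 0.24 for S phase genes, -0.03 and -0.24 for G2/M genes, and 0.42 and -0.32 for replication-independent histones.

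RNAs that end without a poly(A) tail give a view of how such RNA was captured. Of 27 listed, 12 are in the table and 3 were tested. Their summed level ran from 30.3 to 128 CPM in untreated EV libraries and from 125 to 316.5 CPM at 24 h, and from 257 to 399 CPM in untreated OE and from 48.1 to 103 CPM at 24 h. Nearly all of it was RN7SL1, the RNA of the signal recognition particle, which fell in OE at 24 h by 1.93 (SE 0.584, edgeR adjusted p = 0.0449). The others, small nuclear and nucleolar RNAs among them, stayed below 4 CPM in every library. At 12 h it ran from 70.8 to 447 CPM in EV and from 127 to 442 CPM in OE. These ranges overlapped with those of the untreated libraries at both times in EV and at 12 h in OE, and the 24 h OE libraries lay below the untreated ones. Its part in the histone values was not tested.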

How the data were processed

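Total RNA was extracted with TRIzol and sequenced after NEBNext Ultra II library preparation. The deposited values are counts of reads for each gene that the authors did not normalise, in 1 table for all 18 libraries and in 1 table for each library, which hold the same values. The submitters' processing notes name HISAT2, featureCounts, DESeq2 and GRCh38; the annotation, strandedness, treatment of multi-mapped reads and RNA selection are not given in the sources used here. Without strand and with near-identical paralogs, reads of overlapping or similar histone genes cannot be assigned with certainty.

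Identifiers without version were matched to symbols (34966 of 35044), and 33888 were found in GENCODE 29, 16228 of them with the same version. The gene models counted can therefore differ from those of GENCODE 29, from which lengths and transcript ends were taken here. The tests used edgeR 4.0.16 in R 4.3.3 with TMM and filterByExpr by condition. The quasi-likelihood test was applied to 1 mean per condition over all 18 libraries, and a gene was called where its p after Benjamini-Hochberg adjustment was under 0.05. The SE of a log2 change was worked back from this test, as the absolute change divided by the square root of the F statistic. It can be far off where the change is near 0. The design had 3 libraries per condition, and the biological coefficient of variation was 12.9%. Tables were built with Python 3.11.15 and pandas 2.3.3, and the edgeR steps were tested on simulated data. No other columns of per-sample values were present. No pair of libraries agreed within sampling noise. Replicate numbers did not pair the libraries.

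Members are described by level, count and median, with no test over the list. Named in full were the 2 members with the highest CPM in each family and up to 6 called members per comparison, by lowest adjusted p. From the lists, some called genes were named, not always those of lowest adjusted p, and a few genes of histone mRNA metabolism. H2BC7, H2BC9, H2BC4, H2AC8, H2AC20, H2BC13, H2BC15, H2BC17, H3C3, H4C14 and H2BC11 were named after their values were seen. Members and lists were chosen with earlier results of these data known. Alternatives were DESeq2 1.42.0 and its size factors, other filters, the compared conditions alone, a replicate block, an offset for GC content and length (mgcv 1.9.3), a minimum log2 change of 0.5 and each library left out. The values of 1 gene in a list are not reported here.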

Additional observations from a re-analysis of the deposited data

Results flagged for a closer look

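For 3 of 35 members the change at 24 h of olaparib differed between the lines by edgeR's test of the interaction, a share near the 8.16% of all genes called in that direction. H2AC6 had a log2 change of -1.20 in EV and -0.38 in OE, a difference of 0.83 (edgeR adjusted p = 0.00183), called in all 12 fits that left out 1 library. H2BC21 had -1.03 and -0.37, a difference of 0.66 (edgeR adjusted p = 0.0421), which had an adjusted p of 0.0573 with the compared conditions alone and 0.115 without the filter on low counts. H2BC7 had -1.71 and 0.33, a difference of 2.05 (edgeR adjusted p = 0.0378), on 26 counts over the 3 untreated EV libraries. It passed the filter only through OE, where it is higher. H2BC21 and H2BC7 each lost the call in 9 of the 12 fits that left out 1 library. The libraries labelled EV and OE differ in epithelial markers, and BRCA1 was not called higher in OE (log2 difference 0.24, edgeR adjusted p = 0.0654), so a difference between the labelled lines cannot be told apart from the wider difference between these libraries. Groups of 3 libraries are too small for a check of single libraries that stand apart.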

How the results depend on the processing

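The number of members called changed at 12 h in EV, where 1 was called: it was 5 with DESeq2's Wald test, without the filter on low counts and with the GC content and length offset, 4 with the offset and a replicate block, and 0 with the compared conditions alone. Genes called lower over all went from 3 to 52 with DESeq2, 210 without the filter and 71 with the offset. They were 27 with offset and block, and 0 with the compared conditions alone. In EV at 24 h, 7 to 9 were called lower under all alternatives that kept every library, where 474 to 2396 genes were called lower. With the offset, 1 member was also called higher, where 1437 genes were, and likewise 1 with offset and block, where 1352 genes were. In OE at 12 h, 0 became 1 with DESeq2 and 2 with the block and offset, and genes called lower went from 111 to 213 and 567. In OE at 24 h, 2 became 5 with DESeq2, 4 with the offset, 5 with block and offset, and 1 with the compared conditions alone or with an absolute log2 change of at least 0.5. Genes called lower there went from 651 to 1016, 1714, 1640, 335 and 408, in this order. Between 12 h and 24 h in OE, 2 were called with the compared conditions alone, both lower, as were 1774 of 16332 genes. For OE against EV, at least 10 counts in every library left 12 called, since fewer members were then tested. The difference between lines at 12 h gave 1 with DESeq2, with no filter and with at least 10 counts, and 2 with the offset, with or without block. Genes called in that direction were 69 in the main fit, and 177, 253 and 87 in the settings with 1 member. With the offset they were 273, and 237 with the block added. At 24 h it gave 5 with DESeq2, where 1738 of 18335 genes were called in the same direction. In the other direction, 1 member was called without the filter and 1 with block and offset, as were 2404 of 35044 and 1991 of 18335 genes. Leaving out 1 library gave, in either direction, 1 to 4 members in EV at 12 h, 2 to 8 in EV at 24 h and 0 in OE at 12 h. It gave 0 to 4 in OE at 24 h, 23 to 26 for OE against EV, and 0 to 2 and 1 to 5 for the difference between lines at 12 h and 24 h. The 8 in EV at 24 h, without 24 h EV library 3, were 7 lower and 1 higher, where 843 and 1384 genes were called. For the difference at 24 h, the other direction held 1 call without untreated OE library 1 and 2 without 24 h EV library 3. Over all fits without 1 library, 1 to 79 genes were called lower in EV at 12 h and 128 to 843 at 24 h. In OE at 24 h, 216 to 1757 genes were called lower. Where the cause of these moves is not given, it was not tested.

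Family sums moved when the member with most reads was left out: H1 at 12 h in EV was 0.88 on the log2 scale without H1-2, and H2A without H2AC6 was -0.17, -0.45, -0.15 and -0.086 at 12 h and 24 h in EV and at 12 h and 24 h in OE, and 2.12 for OE against EV. H2B without H2BC12 was -0.77 at 24 h in EV, and H4 without H4C9 was 1.65 for OE against EV. With library totals in place of TMM, H2A in OE at 24 h was -0.25. The log2 changes of called members that were recomputed gene by gene kept their direction under these alternatives, and for other called members only counts were recomputed.

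Libraries with the same replicate number did not deviate together (correlations from -0.393 to 0.499), so the numbers were not taken as pairs. With the replicate block, 1 member was called in EV at 12 h, 7 in EV at 24 h, 0 in OE at 12 h, 3 in OE at 24 h, 26 for OE against EV, and 0 and 4 for the difference between lines at 12 h and 24 h. Genes called lower with the block were 1 in EV at 12 h, 898 in EV at 24 h and 566 in OE at 24 h. Depth limits the 26 members below the filter and the genes with few counts, such as H2BC6 and H2BC7, where a change could be told only if large.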
